A study of Mus musculus with 21 samples.

Results

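The genes described here are 10 members of the MHC class I presentation pathway, chosen by symbol: H2-K1, H2-D1, B2m, Tap1, Tap2, Tapbp, Psmb8, Psmb9, Psmb10 and Nlrc5. They are 10 of the 45706 gene rows of the count table, and all 10 were among the 23815 genes that passed the filter of at least 5 counts over all libraries. RNA-seq was done on 21 libraries in 7 groups of 3, each library from 2 pooled brains of male mice aged 17 to 24 weeks. Microglia (40000 CD45low CD11b+ cells) came from wild-type (WT) sham mice, which had a craniotomy without impact. Further microglia came from both genotypes, WT and Fgg γ390–396A, on day 1 and on day 7 of a traumatic brain injury model, controlled cortical impact (CCI). CD45hi CD11b+ cells (25000 per library), which the labels call macrophages and which are called infiltrating myeloid cells here, came from both genotypes at 1 d post-CCI. Fgg γ390–396A mice carry a knock-in of fibrinogen that lacks the motif bound by the CD11b/CD18 integrin and still clots. There were no Fgg γ390–396A sham libraries, so in any comparison of injured Fgg γ390–396A microglia with sham the genotype and the injury cannot be told apart.

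Class I molecules display peptides from inside the cell to CD8 T cells. The proteasome cuts proteins into peptides, the TAP transporter moves the peptides into the endoplasmic reticulum, and tapasin helps to load them onto a heavy chain paired with beta-2-microglobulin. Interferons are known to switch 3 catalytic proteasome subunits for inducible ones, and the transactivator NLRC5 acts on class I promoters.

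Library totals ranged from 18896957 to 51875767 counts, of which 43.0% to 58.5% were ribosomal RNA. Levels are given in CPM (counts scaled to a common library size) after TMM scaling, and 3 counts correspond to 0.0448 to 0.158 CPM, which covers counting error only. The 8 microglia markers summed to 10037 to 11159 CPM in sham, 2745 to 4233 CPM in WT and 4807 to 6225 CPM in Fgg γ390–396A microglia at 1 d, 5976 to 6840 CPM in WT and 7041 to 8163 CPM in Fgg γ390–396A microglia at 7 d, and 345 to 963 CPM in infiltrating myeloid cells. In the infiltrating myeloid libraries the 8 neutrophil markers summed to 2490 to 12936 CPM, above the 1510 to 2184 CPM of the 8 blood monocyte and macrophage markers. The 8 T and NK cell markers summed to at most 1.15 CPM in any microglia library. The sorted cells are bulk samples, so fewer cells of a type and less RNA per cell cannot be told apart.

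In sham microglia the light chain was by far the most abundant of the 10 transcripts. The deposited counts have gene length divided out, so levels of different genes in a library can be compared. B2m (beta-2-microglobulin, GRCm38 chr2:122147686-122153083, plus strand) was at 3000.3, 3137 and 3554 CPM in the 3 sham libraries. The heavy chain gene H2-K1 (chr17:33996017-34000347, minus strand) was at 84.2, 72.3 and 88.3 CPM there, and the heavy chain gene H2-D1 (chr17:35262730-35267499, plus strand) at 86.1, 94.9 and 141 CPM. The sum of H2-K1 and H2-D1 was thus 0.0582 ± 0.0058 of the B2m level (SD, n = 3), and this ratio was 0.0915 ± 0.0087 in WT microglia at 7 d. Tapbp (tapasin, chr17:33915899-33929292) came next at 49.9 to 72.4 CPM, followed by the immunoproteasome subunit genes Psmb10 (chr8:105935735-105938444) at 27.8 to 31.7 CPM, Psmb8 (chr17:34197721-34201454) at 24.8 to 30.5 CPM and Psmb9 (chr17:34181987-34187764) at 13.8 to 18.4 CPM. The transporter genes were lower: Tap1 (chr17:34187553-34197225) was at 7.87 to 10.9 CPM and Tap2 (chr17:34203527-34216321) at 4.21 to 4.68 CPM. Nlrc5 (chr8:94434356-94527272) was lowest, at 0.503 to 1.15 CPM or 16 to 36 counts.

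**Figure D1:**
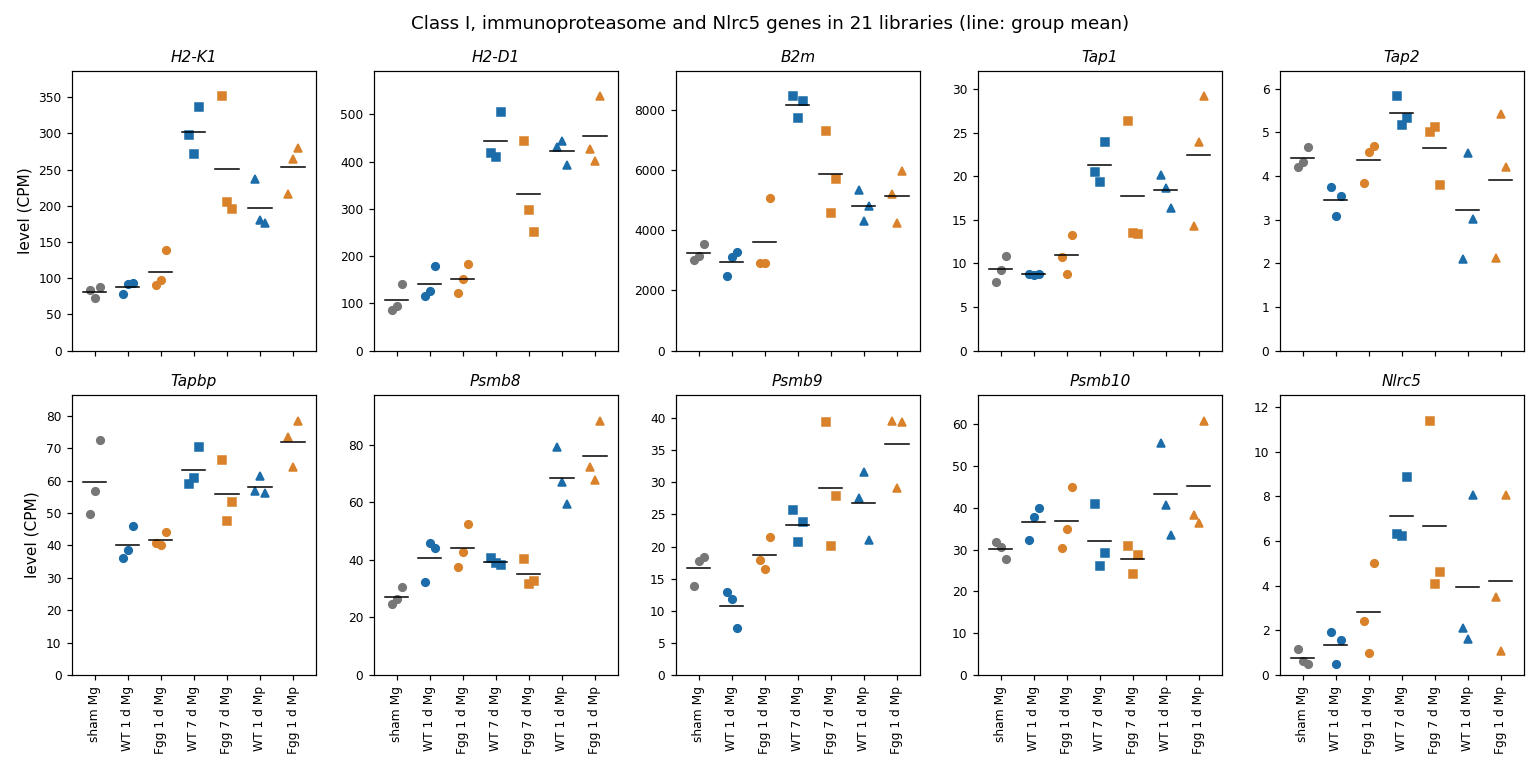
Level in CPM (linear axes from 0) of the 10 genes in each of the 21 libraries by group; points are libraries and lines are group means (n = 3; Mg, microglia; Mp, infiltrating myeloid cells; blue, WT; orange, Fgg γ390–396A). H2-K1 and H2-D1 were above every sham library in all 6 libraries at 7 d, and the Fgg γ390–396A 7 d library at 351 CPM of H2-K1 was the highest of its group.

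At 7 d post-CCI, WT microglia held more of both heavy chain transcripts, the light chain, Tap1 and Nlrc5 than sham microglia, while the immunoproteasome genes did not pass the test. Of the 10 genes 5 were called (edgeR quasi-likelihood test, Benjamini-Hochberg adjusted p under 0.05), all 5 higher, where 2.69% of all genes tested were called and 2.42% were called higher. The groups did not overlap for 8 of the 10, against 20.1% of all genes. H2-K1 was at 298, 271 and 336 CPM in the 3 WT libraries at 7 d, and H2-D1 was at 418, 411 and 504 CPM. Every one of these values was above the 3 sham values of its gene. H2-K1 rose by 1.89 ± 0.22 on the log2 scale (SE, adjusted p = 7.5e-05), and H2-D1 by 2.05 ± 0.24 (adjusted p = 7.5e-05). B2m was at 8450, 7714 and 8298 CPM and rose by 1.34 ± 0.23 (log2, adjusted p = 0.0023), again with no overlap with sham. The median log2 fold change of the 10 genes was 0.86, beside 0 for all genes tested. H2-K1, H2-D1 and B2m kept their call in each fit that left out 1 of these 6 libraries.

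H2-K1, H2-D1 and B2m share short promoter letters, shown here because the 3 genes rose together at 7 d. RefSeq promoter windows (GRCm38.p6, 250 bases before to 50 after the start) were found for 8 of the 10 genes, and not for Tap2 and Nlrc5. Capitals mark matches on either strand, and overlapping matches on both strands are joined in 1 run. The letters were GAANNGAAA (1 form of the interferon-stimulated response element) and GGGA followed 4 bases later by CC (an NF-kB-like site). TGACG (a CRE-like site) and ATTGG (an inverted CCAAT box) were marked as well. The H2-K1 stretch is bases -150 to -1 from the start (chr17:34000348-34000497, minus strand), the B2m stretch is bases -150 to -2 (chr2:122147537-122147685, plus strand), and the H2-D1 stretch is bases -150 to -121 (chr17:35262944-35262973, plus strand), which lies in an H2-D1 exon of GENCODE M21.
H2-K1: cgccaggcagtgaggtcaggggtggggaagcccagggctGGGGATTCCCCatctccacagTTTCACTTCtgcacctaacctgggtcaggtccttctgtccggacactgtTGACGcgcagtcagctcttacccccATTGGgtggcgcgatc
B2m: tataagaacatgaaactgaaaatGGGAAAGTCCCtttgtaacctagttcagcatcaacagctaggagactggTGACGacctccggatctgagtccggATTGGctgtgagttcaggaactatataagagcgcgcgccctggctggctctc
H2-D1: TTTCACTTCtgcacctaacctgggtcaggt
The 30 H2-D1 bases equal those of H2-K1 from the same capitals on, and over bases -210 to -61 of H2-D1 and -150 to -1 of H2-K1 the windows were identical at 135 of 150 positions. GAANNGAAA matched in the windows of H2-K1 and H2-D1, so in 2 of 8, against 7.52% of 32851 promoter windows. Only this spacing was searched. The printed B2m stretch holds gaaactgaaa, with a longer gap between GAA and GAAA, which was neither marked nor counted. The NF-kB-like letters matched in 3 of 8 (H2-K1, H2-D1 and B2m) against 20.7% of all windows, TGACG in 5 of 8 against 20.8%, and ATTGG in 6 of 8 against 37.4%. The motif TTCNNNGAA (a gamma-activated site) matched in the window of Psmb8, 1 of 8, against 8.30% of all windows. These are matches of letters and not measured binding.

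Of the peptide transport and loading genes, Tap1 was called at 7 d in WT microglia and Tap2 and Tapbp were not. Tap1, a chain of the peptide transporter, was at 20.5, 19.4 and 23.9 CPM at 7 d and rose by 1.18 ± 0.27 (log2, adjusted p = 0.017) with no overlap with sham. Tap2, its partner chain, was at 5.83, 5.16 and 5.33 CPM, and its log2 fold change of 0.30 (95% interval -0.38 to 0.99) had an adjusted p of 0.80. Within a library Tap1 was 2.12 ± 0.23 times Tap2 in sham and 3.92 ± 0.50 times in WT microglia at 7 d (SD, n = 3). Tapbp was at 58.9 to 70.4 CPM, within the spread of sham (log2 fold change 0.09, 95% interval -0.25 to 0.43). Nlrc5 was at 6.31, 6.22 and 8.85 CPM at 7 d, all above sham, and rose by 3.24 ± 0.79 (log2, adjusted p = 0.029).

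The calls of Tap1 and Nlrc5 in this comparison did not hold in every fit that left out 1 library. Nlrc5 was lost when any 1 of the 6 libraries was left out (adjusted p = 0.055 to 0.14), and Tap1 without sham replicate 1 or 2 or WT 7 d replicate 1 or 3 (adjusted p = 0.056 to 0.11), which left 3 genes called in each of these 4 fits. Both were also lost under scaling to library totals (adjusted p = 0.22 for Tap1 and 0.056 for Nlrc5), where the median over all genes was -0.47 in place of 0. Beside these values, the 8 blood monocyte and macrophage markers summed to 30.3 to 61.4 CPM in WT microglia at 7 d and 8.16 to 49.9 CPM in sham, and their part in the result was not tested. Of the 8 T and NK cell markers, 5 were at 0 in all 3 WT libraries at 7 d.

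The 3 immunoproteasome genes, which encode the inducible catalytic subunits, were not called at 7 d. Psmb8 was at 40.6, 39.1 and 38.2 CPM in WT microglia at 7 d, each above every sham library, with a log2 fold change of 0.53 ± 0.18 and an adjusted p of 0.15 (DESeq2 adjusted p = 0.025). Psmb9 was at 25.8, 20.7 and 23.8 CPM, also above sham (log2 fold change 0.49 ± 0.25, adjusted p = 0.45). Psmb10 was at 40.8, 26.2 and 29.3 CPM and overlapped with sham (log2 fold change 0.10, 95% interval -0.38 to 0.57).

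**Figure D2:**
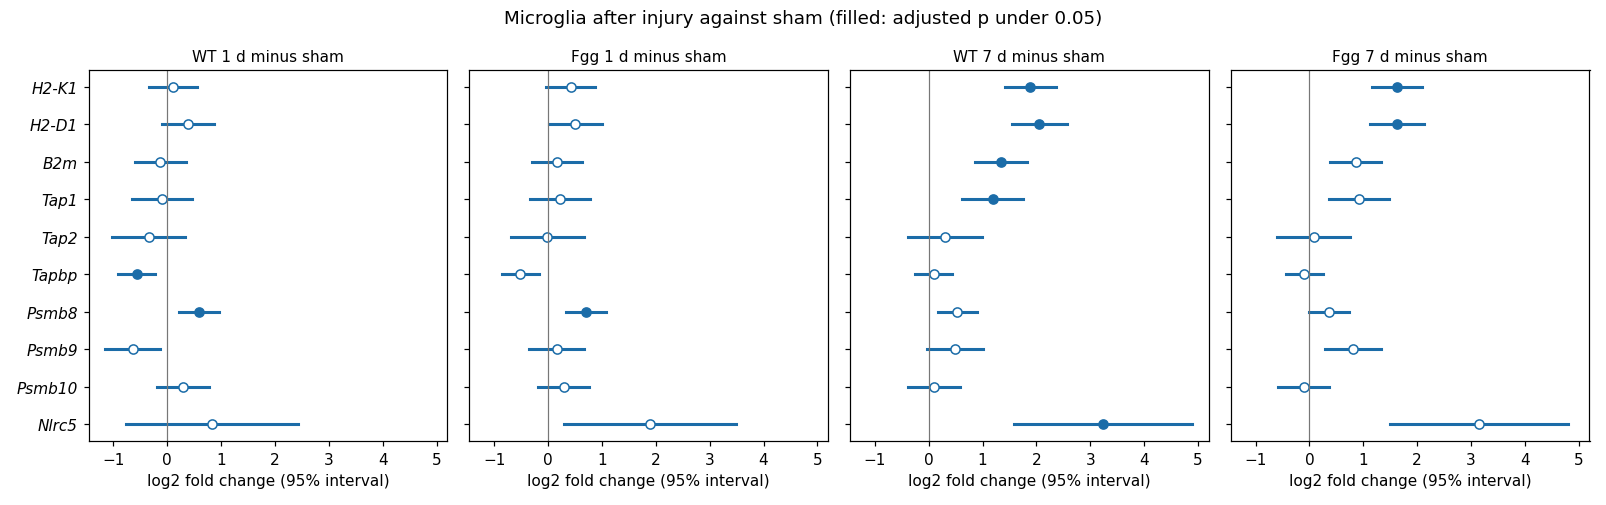
Log2 fold change with its 95% interval (edgeR, n = 3 against 3) of the 10 genes in injured microglia against the same 3 WT sham libraries; filled points have an adjusted p under 0.05. At 7 d H2-K1 and H2-D1 were filled in both genotypes (log2 1.62 to 2.05), and at 1 d Psmb8 was filled in both (log2 0.59 and 0.70), calls lost under scaling to library totals, where the WT value was -0.19.

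At 1 d post-CCI, in WT microglia Psmb8 was higher and Tapbp lower than in sham, and the heavy and light chains were not called, whereas under scaling to library totals Psmb8 was not higher and B2m was called lower. With TMM scaling that made 2 of 10 genes called where 16.7% of all genes tested were called (10.7% higher and 5.97% lower), and the median log2 fold change of the 10 genes was 0.0036 beside 0 for all genes. The groups did not overlap for 5 of the 10, against 33.8% of all genes. Psmb8 was at 32.4, 45.7 and 44.3 CPM, above all sham libraries, and rose by 0.59 ± 0.18 (log2, adjusted p = 0.026). Tapbp was at 36.0, 38.5 and 46.1 CPM, below all sham libraries, and fell by 0.57 on the log2 scale (SE 0.16, adjusted p = 0.020). H2-K1 was at 77.9, 91.6 and 93.5 CPM, overlapping with sham, and B2m at 2472, 3099 and 3273 CPM, overlapping as well.

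Psmb9 at 1 d lay below sham without passing the threshold. It was at 12.9, 11.8 and 7.38 CPM in WT microglia, under the lowest sham library, with a log2 fold change of -0.64 ± 0.25 and an adjusted p of 0.086 (DESeq2 adjusted p = 0.019). Psmb9 and Tap1 lie head to head and overlap on opposite strands in GENCODE M21, and 10.8% of the 31-base words of the Psmb9 transcripts also occur in Tap1, so their reads cannot be fully told apart without strand, which is not given in the sources used here. The calls of Psmb8 and Tapbp did not hold in every fit that left out 1 library. Psmb8 was lost without sham replicate 1 or 2 or WT 1 d replicate 2 or 3 (edgeR adjusted p = 0.086 to 0.11). Tapbp was lost without sham replicate 3 or WT 1 d replicate 1 or 2 (edgeR adjusted p = 0.073 to 0.12). Each such fit called 1 gene, except the fit without WT 1 d replicate 2, which called 0. Under scaling to library totals without TMM factors the median log2 fold change of all genes in this comparison was -0.67 in place of 0, and Psmb8 was at -0.19 (adjusted p = 0.48). The 4 genes called under that scaling were all lower than in sham, namely Tapbp (-1.32, adjusted p = 7.0e-05), Psmb9 (-1.33, adjusted p = 0.0032), Tap2 (-1.07, adjusted p = 0.034) and the light chain gene B2m (-0.90, adjusted p = 0.0048). Beside these values, the blood monocyte and macrophage markers summed to 105 to 188 CPM at 1 d in WT microglia, against at most 49.9 CPM in sham, and their part in the result was not tested.

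In Fgg γ390–396A microglia Psmb8 was higher than in sham at 1 d, and H2-K1 and H2-D1 were higher at 7 d. At 1 d 1 of 10 genes was called where 9.79% of all genes tested were called (7.60% higher), and the groups did not overlap for 3 of 10, against 29.0% of all genes. Psmb8 was at 37.4, 42.7 and 52.5 CPM, above all sham libraries, and rose by 0.70 ± 0.18 (log2, adjusted p = 0.013), a call lost without sham replicate 1 or 2 or Fgg γ390–396A 1 d replicate 3 (adjusted p = 0.056 to 0.099). Under scaling to library totals Psmb8 was not called either (0.26, adjusted p = 0.41), and the 1 gene called there was Tapbp, lower than in sham (-0.93, adjusted p = 0.0035). Tapbp was at 40.9, 40.1 and 44.1 CPM, below all sham libraries, with a log2 fold change of -0.52 ± 0.16 and an adjusted p of 0.051. Without sham replicate 1 Tapbp was called (adjusted p = 0.031).

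At 7 d 2 of 10 genes were called in Fgg γ390–396A microglia, both higher, where 0.886% of all genes tested were called (0.831% higher). The groups did not overlap for 7 of 10, against 15.6% of all genes. H2-K1 was at 351, 205 and 195 CPM and rose by 1.62 ± 0.22 (log2, adjusted p = 8.6e-04), and H2-D1 was at 443, 297 and 251 CPM and rose by 1.62 ± 0.24 (adjusted p = 0.0016). All of these values were above sham, and in both genes replicate 1 was well above the other two. B2m was at 7301, 4571 and 5709 CPM, above sham in all libraries, with a log2 fold change of 0.86 ± 0.23 and an adjusted p of 0.095 (DESeq2 adjusted p = 0.0034). Nlrc5 was at 11.4, 4.06 and 4.62 CPM, also above sham in all libraries, with a log2 fold change of 3.15 ± 0.79 and an adjusted p of 0.071 (DESeq2 adjusted p = 0.0024). Tap1 was at 26.3, 13.5 and 13.3 CPM (log2 fold change 0.92 ± 0.27, adjusted p = 0.16). These comparisons use the same 3 sham libraries as the WT comparisons.

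Between 1 d and 7 d the heavy chains rose in both genotypes, and 5 further genes did so in WT microglia. In WT microglia 7 of 10 genes were called, all higher at 7 d, where 10.3% of all genes tested were called (3.70% higher), and the groups did not overlap for 8 of 10, against 29.4% of all genes. The log2 differences were 1.78 ± 0.22 for H2-K1 (adjusted p = 4.3e-05), 1.66 ± 0.24 for H2-D1 (adjusted p = 1.4e-04) and 1.47 ± 0.23 for B2m (adjusted p = 2.9e-04). Tap1 rose by 1.28 ± 0.27, Tapbp by 0.66 ± 0.16, Psmb9 by 1.13 ± 0.25 and Nlrc5 by 2.41 ± 0.76 on the same scale (adjusted p = 0.0035, 0.012, 0.0047 and 0.049). None of these 7 genes overlapped between the WT groups at 1 d and 7 d. Nlrc5 was lost when any 1 of the 6 libraries was left out (adjusted p = 0.057 to 0.22), Tapbp without WT 1 d replicate 2 or WT 7 d replicate 3 (adjusted p = 0.093 and 0.067), and Psmb9 without WT 1 d replicate 3 (adjusted p = 0.056). Psmb8 and Psmb10 had log2 differences of -0.05 and -0.19, with 95% intervals of -0.42 to 0.31 and -0.67 to 0.28.

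In Fgg γ390–396A microglia 2 of 10 genes were called between the same times, both higher at 7 d, where 5.64% of all genes tested were called (1.08% higher), and the groups did not overlap for 4 of 10, against 27.3% of all genes. The log2 differences were 1.20 ± 0.22 for H2-K1 (adjusted p = 0.0022) and 1.12 ± 0.24 for H2-D1 (adjusted p = 0.0064). H2-D1 was lost without Fgg γ390–396A 7 d replicate 1 (0.85, adjusted p = 0.059). B2m had a log2 difference of 0.69 ± 0.23 (adjusted p = 0.088), and it was called without Fgg γ390–396A 1 d replicate 3 (1.01, adjusted p = 0.015), in which B2m was at 5055 CPM against 2908 and 2911 CPM in the other two. DESeq2 called 6 of the 10 genes here, adding B2m, Tap1, Tapbp and Psmb9.

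None of the 10 genes differed by the test between Fgg γ390–396A and WT cells. In microglia at 1 d edgeR called 0 of 10 where 0.0420% of all genes tested were called, with 1 of 10 against 5.08% at an unadjusted p under 0.05 and 0 with DESeq2. At 7 d edgeR called 0 where 0.0378% were called, with 1 against 3.34% unadjusted and 0 with DESeq2. In infiltrating myeloid cells edgeR called 0 where 0.206% were called, with 0 against 11.5% unadjusted and 0 with DESeq2. The genotypes did not overlap for 2 of 10 genes at 1 d, 2 at 7 d and 1 in infiltrating myeloid cells, against 8.72%, 11.1% and 8.02% of all genes. The gene past the unadjusted threshold at 1 d was Psmb9, at 17.9, 16.6 and 21.5 CPM in Fgg γ390–396A microglia, which did not overlap with the WT values, and its log2 difference was 0.81 ± 0.25 (edgeR adjusted p = 0.80). At 7 d it was B2m, lower in all 3 Fgg γ390–396A libraries than in any WT library (log2 difference -0.48 ± 0.23, edgeR adjusted p = 1).

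The intervals leave room for moderate genotype differences. For H2-K1 the 95% interval of the log2 difference, Fgg γ390–396A minus WT, was -0.14 to 0.77 at 1 d, -0.72 to 0.18 at 7 d and -0.09 to 0.81 in infiltrating myeloid cells. For H2-D1 the intervals were -0.37 to 0.61, -0.92 to 0.06 and -0.38 to 0.60. For Nlrc5 the interval was the widest of the 10 genes in each of the 3 comparisons, and at 1 d it was -0.48 to 2.61. The log2 difference was above 0 for 10 of 10 genes at 1 d (median 0.31) and for 1 of 10 at 7 d (median -0.21). These genes were measured in the same libraries, so their signs are not independent. Under scaling to library totals the median over all genes was 0.29 at 1 d and 0.18 at 7 d, in place of 0. The difference between the genotype effects at 7 d and 1 d was called for 0 of 10 genes (edgeR, and 0 with DESeq2) and for 0% of all genes tested. At an unadjusted p under 0.05 it was 1 of 10, B2m with a log2 difference of -0.77 ± 0.32, against 2.74% of all genes. The difference between the genotype effects in infiltrating myeloid cells and in microglia at 1 d was called for 0 of 10 genes (edgeR, and 0 with DESeq2) where 0.0252% of all genes tested were called, and for 0 of 10 against 8.37% at an unadjusted p under 0.05.

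**Figure D3:**
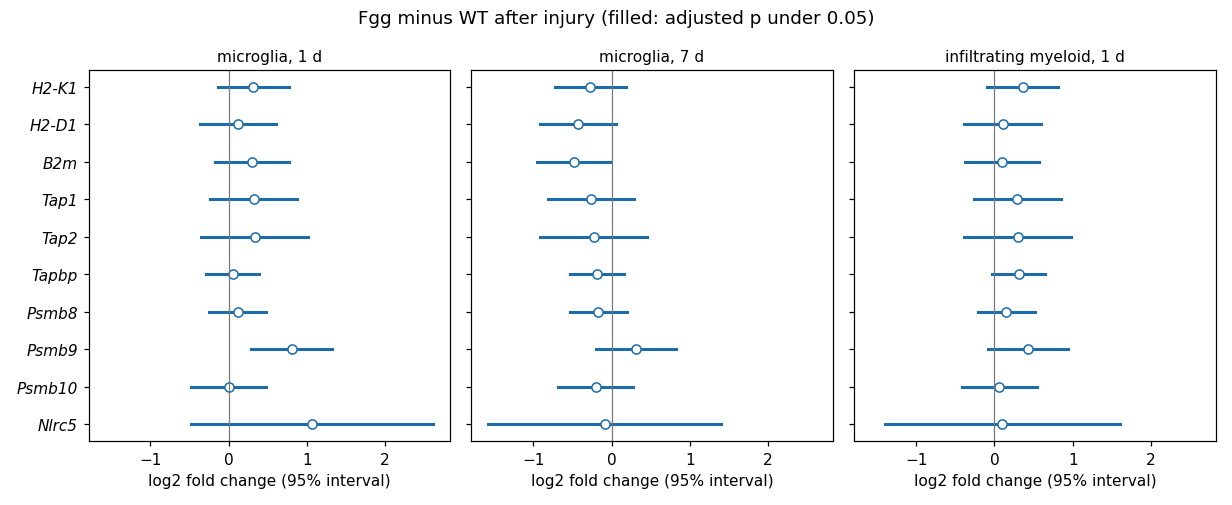
Log2 difference, Fgg γ390–396A minus WT, with its 95% interval (edgeR, n = 3 against 3) for the 10 genes in microglia at 1 d and 7 d and in infiltrating myeloid cells at 1 d; filled points would have an adjusted p under 0.05. No point is filled, and the points of Psmb9 at 1 d (0.81) and of Nlrc5 at 1 d (1.07, interval -0.48 to 2.61) lie farthest from 0.

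Infiltrating myeloid cells at 1 d held more H2-K1, H2-D1, Tap1, Tapbp, Psmb8 and Psmb9 transcript than microglia from the same time in both genotypes. Tap2 (-0.11 and -0.15, log2) and Psmb10 (0.24 and 0.30) were called in neither. In WT cells 7 of 10 genes were called, all higher in infiltrating myeloid cells, where 15.7% of all genes tested were called (7.56% higher). In Fgg γ390–396A cells 6 of 10 were called, again all higher, where 21.4% were called (9.33% higher). The cell types did not overlap for 7 of 10 genes in WT and 6 of 10 in Fgg γ390–396A cells, against 29.2% and 32.1% of all genes. H2-D1 was at 432, 443 and 393 CPM in WT and 426, 401 and 538 CPM in Fgg γ390–396A infiltrating myeloid cells, with log2 differences of 1.59 ± 0.24 (adjusted p = 9.7e-05) and 1.58 ± 0.24 (adjusted p = 8.6e-05). H2-K1 differed by 1.17 ± 0.22 and 1.22 ± 0.22 (adjusted p = 8.2e-04 and 4.8e-04), and Tap1 by 1.07 ± 0.27 and 1.04 ± 0.27 (adjusted p = 0.0087 and 0.0079).

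Psmb8 separated the 6 infiltrating myeloid libraries from all 15 microglia libraries. It was at 79.2, 67.1 and 59.4 CPM in WT and 72.1, 67.8 and 88.4 CPM in Fgg γ390–396A infiltrating myeloid cells, all above the highest microglia library at 52.5 CPM. Its log2 differences to microglia were 0.75 ± 0.18 and 0.78 ± 0.18 (adjusted p = 0.0055 and 0.0031), those of Psmb9 were 1.32 ± 0.25 and 0.95 ± 0.25 (adjusted p = 8.6e-04 and 0.0086), and those of Tapbp were 0.53 ± 0.16 and 0.79 ± 0.16 (adjusted p = 0.031 and 0.0016). B2m was called in WT cells (0.71 ± 0.23, adjusted p = 0.039) and not in Fgg γ390–396A cells (0.50 ± 0.23, adjusted p = 0.13), and the difference between these effects was -0.21 ± 0.32 (adjusted p = 1).

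Of these calls, B2m in WT cells was lost without WT 1 d microglia replicate 1 or 2 or WT infiltrating myeloid replicate 1 or 3 (adjusted p = 0.065 to 0.14), and Tapbp in WT cells without any of 5 libraries, microglia replicates 1 and 2 and the 3 infiltrating myeloid ones (adjusted p = 0.057 to 0.12). Under scaling to library totals the median over all genes in the Fgg γ390–396A comparison was -0.54, in place of -0.13. H2-K1 and H2-D1 were called there, and Tap1, Tapbp, Psmb8 and Psmb9 were lost (adjusted p = 0.13, 0.14, 0.11 and 0.18). The neutrophil markers summed to 22.7 to 772 CPM in microglia at 1 d and to 2490 to 12936 CPM in infiltrating myeloid cells, and the part of this mixture in the differences was not tested. The ordering of groups by mean level differed between genes: H2-K1 was highest in WT microglia at 7 d (302 CPM), H2-D1 in Fgg γ390–396A infiltrating myeloid cells (455 CPM) and B2m in WT microglia at 7 d (8154 CPM). In the order of means, H2-K1 and H2-D1 were separated without overlap at 1 step, between Fgg γ390–396A microglia at 1 d and the next group, and all other neighbouring groups overlapped. For B2m the separated step was the one below WT microglia at 7 d. With TMM scaling Tap2 and Psmb10 were called in none of the 11 pairwise comparisons.

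Set against the constitutive subunits that they replace, immunoproteasome transcripts were lower at 1 d than in sham in every WT library. Within a library the ratio of 2 genes does not depend on the scaling between libraries. Psmb8 over Psmb5 (the beta5 pair) was 1.11, 1.17 and 1.41 in sham, 0.519, 0.531 and 0.585 in WT microglia at 1 d, and 1.53, 2.16 and 1.75 in WT microglia at 7 d. Psmb9 over Psmb6 (the beta1 pair) was 0.269, 0.401 and 0.555 in sham, 0.114, 0.0738 and 0.0450 in WT microglia at 1 d, and 0.395, 0.399 and 0.480 at 7 d. Psmb10 over Psmb7 (the beta2 pair) was 1.21, 1.22 and 1.00 in sham, 0.517, 0.438 and 0.494 in WT microglia at 1 d, and 1.28, 0.960 and 0.981 at 7 d. For all 3 pairs the WT libraries at 1 d were below every sham library and every WT library at 7 d. At 7 d the Psmb8 over Psmb5 ratio was above every sham library, and the other pairs overlapped with sham.

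Exact permutation tests (two-sided, 3 against 3, smallest possible p = 0.1) were run on 33 comparisons of log2 ratios. Of these, 21 showed no overlap (exact p = 0.1, Benjamini-Hochberg adjusted p = 0.16). The 33 comparisons share libraries and genes, so they are not independent, and the share without overlap for other ratios was not computed. Of single genes, 8.02% (between genotypes in infiltrating myeloid cells) to 33.8% (WT microglia at 1 d against sham) did not overlap. The WT 1 d minus sham difference was -1.17 for Psmb8 over Psmb5, -2.43 for Psmb9 over Psmb6 and -1.24 for Psmb10 over Psmb7 on the log2 scale. The constitutive genes moved in these libraries: Psmb5, Psmb6 and Psmb7 rose at 1 d in WT microglia by 1.75 ± 0.17, 1.76 ± 0.23 and 1.54 ± 0.22 (log2, edgeR adjusted p = 6.8e-07, 1.7e-05 and 6.1e-05), and all 3 also rose in Fgg γ390–396A microglia (by 1.48, 1.50 and 1.26). Of all genes tested, 10.7% (WT) and 7.60% (Fgg γ390–396A) were called higher at 1 d. At 7 d none of the 3 was called against sham in either genotype (edgeR, 0 at an unadjusted p under 0.05). Few of all genes tested were called at 7 d either, 2.69% in WT and 0.886% in Fgg γ390–396A microglia.

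The ratios of Fgg γ390–396A microglia at 1 d lay between those of WT microglia at 1 d and of sham. They were 0.724, 0.620 and 0.808 for Psmb8 over Psmb5, 0.195, 0.153 and 0.131 for Psmb9 over Psmb6, and 0.614, 0.526 and 0.615 for Psmb10 over Psmb7. In all 3 pairs every Fgg γ390–396A library was above every WT library at 1 d, by 0.39, 1.12 and 0.28 on the log2 scale, and the test could not go below 0.1. Both parts of the ratios enter these differences. Of single genes, 8.72% did not overlap between these groups, and the share for other ratios was not computed. Between the genotypes (Fgg γ390–396A minus WT, log2, edgeR) Psmb8 was at 0.11, Psmb9 at 0.81 and Psmb10 at 0.0022. Psmb5, Psmb6 and Psmb7 were at -0.28 to -0.26, and 0 of these genes were called. In the same libraries the 8 blood monocyte and macrophage markers summed to 105 to 188 CPM in WT and 46.7 to 89.7 CPM in Fgg γ390–396A microglia, and the 8 microglia markers to 2745 to 4233 and 4807 to 6225 CPM, both without overlap, and their part in the result was not tested. In infiltrating myeloid cells the Fgg γ390–396A libraries were above the WT ones without overlap for Psmb8 over Psmb5 (0.930 ± 0.136 against 0.612 ± 0.109, SD, n = 3) and Psmb10 over Psmb7 (0.838 ± 0.175 against 0.486 ± 0.092), and overlapped for Psmb9 over Psmb6 (0.220 ± 0.070 against 0.172 ± 0.044). Of single genes, 8.02% did not overlap between the genotypes there. In these cells Psmb8, Psmb9 and Psmb10 differed between the genotypes by 0.15, 0.43 and 0.06 (log2, edgeR, 0 called). Psmb5, Psmb6 and Psmb7 differed by -0.70 to 0.12 (0 called, 2 at an unadjusted p under 0.05). At 7 d the genotypes overlapped for all 3 pairs.

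**Figure D4:**
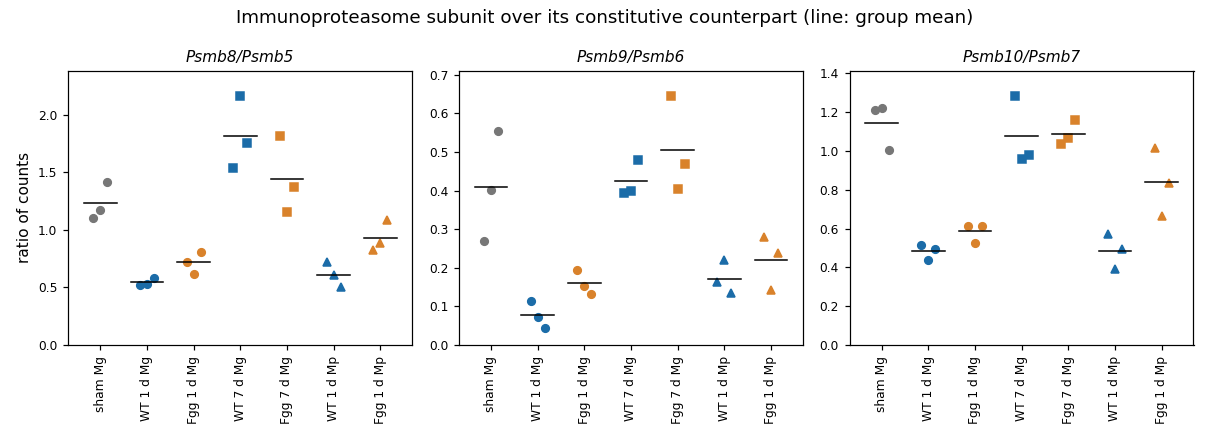
Ratio of the counts of each immunoproteasome subunit gene to its constitutive counterpart in the 21 libraries (linear axes from 0; points are libraries, lines are group means, n = 3; Mg, microglia; Mp, infiltrating myeloid cells). For Psmb8/Psmb5 the WT 1 d microglia lie between 0.519 and 0.585, below the sham libraries at 1.11 to 1.41, and the Fgg γ390–396A 1 d microglia lie at 0.620 to 0.808.

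Other class I heavy chain genes also had higher counts at 7 d, though some of them share sequence with H2-K1 and H2-D1 (given below). Of 10 such genes listed and tested, 5 were called in WT microglia at 7 d against sham, all higher (median log2 fold change 1.27 beside 0 for all genes), and 3 were called in Fgg γ390–396A microglia, all higher (median 1.07). Of all genes tested 2.42% and 0.831% were called higher in these comparisons. The lowest value in WT microglia was that of Cd1d1, at -1.02 ± 0.57 (adjusted p = 0.50). H2-Q7, a class Ib gene, was at 5.77, 1.56 and 1.13 CPM in sham and at 31.3, 33.3 and 46.2 CPM in WT microglia at 7 d, a rise of 3.71 ± 0.67 (log2, edgeR adjusted p = 0.0030). H2-Q6 rose by 3.25 ± 0.58 and H2-Q4 by 2.42 ± 0.28 (adjusted p = 0.0027 and 6.8e-05), and all 3 were also called in Fgg γ390–396A microglia, at 3.49, 3.05 and 2.06. H2-T23, which encodes the nonclassical molecule Qa-1, rose by 1.02 ± 0.23 in WT microglia, and H2-M3, which presents formylated peptides, rose by 1.03 ± 0.27 (adjusted p = 0.019 and 0.045). At 1 d 1 of the 10 was called in each genotype, where 16.7% (WT) and 9.79% (Fgg γ390–396A) of all genes were called, and it was H2-T24, which fell by 2.09 in WT and by 1.10 in Fgg γ390–396A microglia (log2, adjusted p = 1.7e-04 and 0.036). H2-T24 was at 26.3, 19.8 and 26.1 CPM in sham and at 7.83, 5.75 and 3.32 CPM in WT microglia at 1 d.

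Reads of the heavy chain genes are partly interchangeable. Of the 31-base words in protein-coding transcripts of GENCODE M21, 20.3% of those of H2-K1 and 27.9% of those of H2-D1 also occurred in another gene, with 14.3% and 13.6% shared between these 2 genes, so the division of counts between them is uncertain. H2-D1 also shared 9.05% of its words with H2-Q7, 8.7% with H2-Q4 and 7.82% with H2-Q6. H2-K1 shared 8.45% with H2-Q4, 7.92% with H2-T23 and 6.34% with H2-Q6. The division of counts with these less abundant genes is thus uncertain too, and its part in their rises was not tested. Summing 16 heavy chain genes, of which H2-D1 gave 50.2% and H2-K1 31.9% of the counts, gave log2 fold changes of 1.88 ± 0.22 for WT and 1.55 ± 0.22 for Fgg γ390–396A microglia at 7 d against sham (adjusted p = 8.7e-05 and 0.0013), and 0.08 and 0.31 at 1 d (adjusted p = 0.91 and 0.45). Tapbp shared 20.7% of its words with the gene model Gm19412, Tap2 shared 11.7% with Gm15821, and B2m and Psmb10 shared none.

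Calls among loading and proteasome partner genes came mostly at 1 d, as they did over all genes, of which 16.7% (WT) and 9.79% (Fgg γ390–396A) were called at 1 d and 2.69% and 0.886% at 7 d. Of 5 loading and trimming genes, Calr (calreticulin), Canx (calnexin) and Pdia3 (ERp57), which are general chaperones of the endoplasmic reticulum, rose at 1 d in WT microglia by 1.45, 0.91 and 1.05 (log2, edgeR adjusted p = 7.5e-05, 9.9e-04 and 2.6e-04) and in Fgg γ390–396A microglia by 1.22, 0.72 and 0.94, and 0 of 5 were called at 7 d against sham in either genotype (edgeR, and 0 at an unadjusted p under 0.05). The other two were called in neither, and in WT microglia at 1 d Tapbpl, a tapasin relative, was at -0.59 and Erap1, a peptide trimming enzyme, at 0.43. The proteasome activator genes Psme1 and Psme2 and the assembly factor gene Pomp were all called at 1 d in both genotypes, at log2 fold changes of 0.74 to 1.29. At 7 d 1 of these 3 was called in WT microglia, Psme1 at 1.25 ± 0.23 (adjusted p = 0.0038), and 0 in Fgg γ390–396A microglia (edgeR; 2 at an unadjusted p under 0.05).

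Among 17 regulators of the pathway, Stat2, an interferon signal transducer, was higher at 7 d in both genotypes. It rose by 1.69 ± 0.33 in WT and by 1.62 ± 0.33 in Fgg γ390–396A microglia (log2, edgeR adjusted p = 0.0057 and 0.018). At 1 d 5 of the 17 were called in WT microglia, where 16.7% of all genes were called (5.97% lower), of which Ifngr1 (a chain of the interferon gamma receptor), Irf1, Irf2 and Rfx5 fell, by 1.33, 1.19, 0.75 and 1.18 on the log2 scale, and Rfxap rose by 0.98. Ifngr1 and Irf2 were the 2 called in Fgg γ390–396A microglia at 1 d, at -0.78 and -0.71, a share near the 9.79% of all genes. The interferon gene Ifng had 0 counts in 17 of 21 libraries and at most 15 counts in any, and Ifnb1 had at most 19 counts, so no fold change is given for these 2 genes. Between infiltrating myeloid cells and microglia at 1 d, 6 of the 17 were called in WT and 8 in Fgg γ390–396A cells, all higher in infiltrating myeloid cells. Of all genes tested, 7.56% and 9.33% were called higher there. In infiltrating myeloid cells Ciita, the class II transactivator, was at 5.18 to 20.5 CPM, against at most 0.627 CPM in microglia at 1 d. Jak2 differed by 2.11 ± 0.21 in WT and 2.40 ± 0.21 in Fgg γ390–396A cells (log2, edgeR adjusted p = 1.2e-06 and 2.7e-07).

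**Figure D5:**
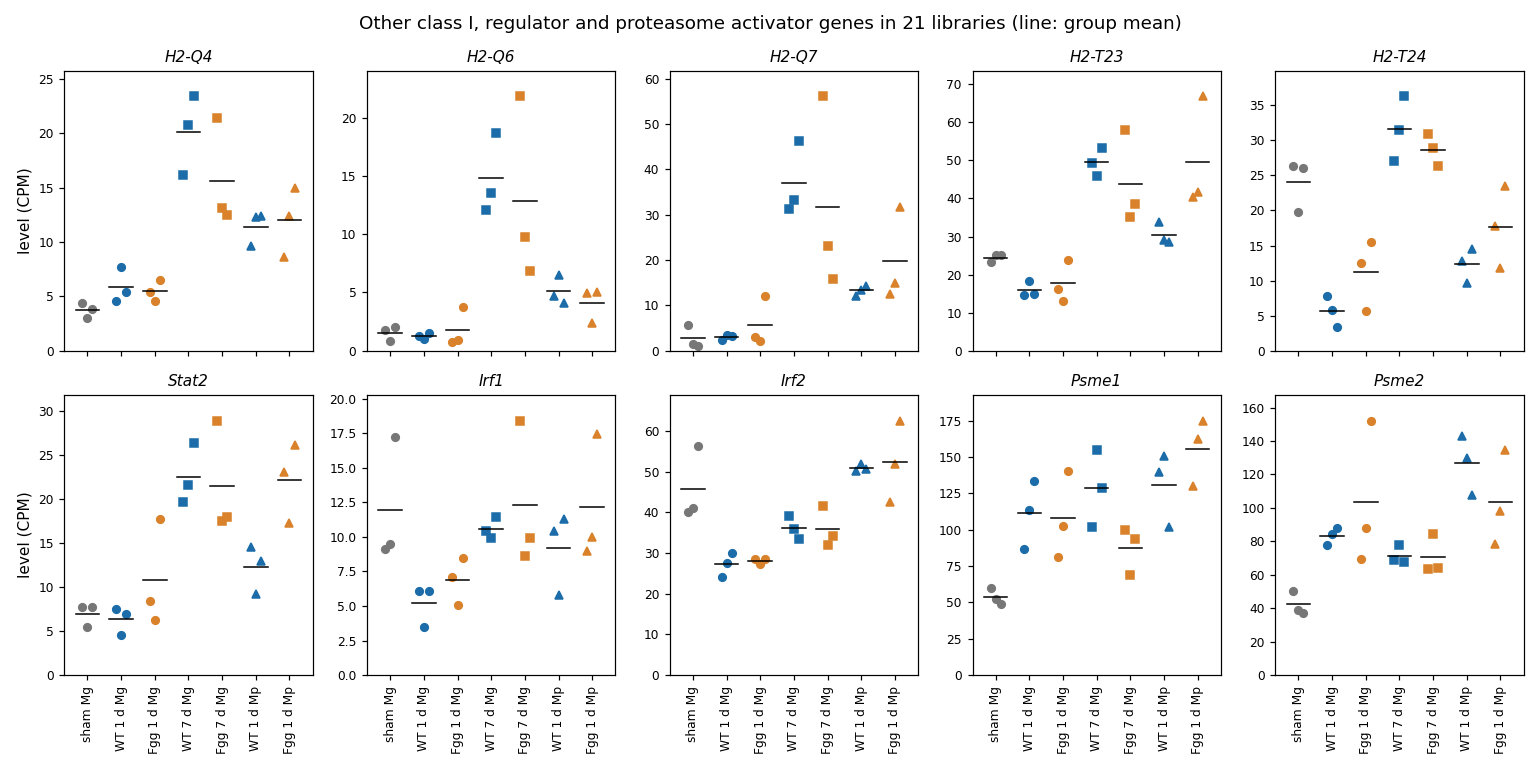
Level in CPM (linear axes from 0) of 5 other class I heavy chain genes, 3 regulators and 2 proteasome activator genes in the 21 libraries; points are libraries and lines are group means (n = 3; Mg, microglia; Mp, infiltrating myeloid cells). H2-Q7 lies at 31.3 to 46.2 CPM in WT microglia at 7 d and at 1.13 to 5.77 CPM in sham, and H2-T24 lies lowest in WT microglia at 1 d.

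The genes whose group means most resembled those of the members were sought among 5360 genes of at least 10 CPM on average, by the root mean square difference of centred log2 means over the 7 groups, as a description over groups that share libraries, depth and scaling. For H2-K1 they included Stat2 (0.19) and Parp14 (0.19), and for H2-D1 they were Rnf213 (0.16), Phf11b (0.26) and Xaf1 (0.26). For B2m they were Ifih1, Trim30a and Eif2ak2 (0.18 each), for Tap1 Trim30a, Ifih1 and Gvin1 (0.09 to 0.12), and for Nlrc5 H2-Q4, Ifit2 and Stat2 (0.40 to 0.51). The nearest genes of Psmb8 (Ccdc88a, Pgls and Ubxn1, 0.10 to 0.11), Psmb9 (Parp10, Rn7s2 and Pip5k1c, 0.14 to 0.16) and Psmb10 (Dpm2, Rbm27 and Syngr2, 0.05 to 0.06) were other genes again, as were those of Tapbp (Eif4g3, Dock11 and Rab5b, 0.08 to 0.09) and Tap2 (Phip, Ncstn and Mga, 0.06 to 0.09). Among the members themselves, H2-K1 was the second nearest gene to H2-D1 (0.24), while the nearest member to Psmb10 was Psmb8 at 0.29. A smaller value is easier to reach for a gene that varies less: the group means spanned 0.66 on the log2 scale for Psmb10 and 3.20 for Nlrc5.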

How the data were processed

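RNA-seq was done on microglia and infiltrating myeloid cells of WT and Fgg γ390–396A mice. The authors trimmed reads with Trim Galore and quantified them with salmon in nf-core/rnaseq against GRCm38. The deposited values are expected counts, scaled by the authors so that gene length is divided out within a library. The submitters' processing notes name R 4.2.0 and DESeq2 1.36.0. After rounding, 1 model with a mean per group was fitted to all 21 libraries by the quasi-likelihood method of edgeR 4.0.16 in R 4.3.3 with TMM scaling, and p-values were adjusted by Benjamini-Hochberg over 23815 genes. Genes under 5 counts over all libraries were left out, and a call needed only an adjusted p under 0.05, whatever its fold change. The SE was the absolute log2 fold change over the root of its F statistic. Symbols and coordinates came from GENCODE M21 (45143 of 45706 identifiers matched). Levels are CPM. Library totals of 18896957 to 51875767 counts set the precision: 3 counts are 0.0448 to 0.158 CPM. The fit was also run on simulated counts. These had a smaller spread between libraries than the real data, and larger changes than most given here. That run therefore does not measure the error rate of these calls.

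The genes and lists were chosen with earlier results of these data known. The rule was to name all 10 members, the genes of each list with the smallest and largest fold changes or counted in groups of 5 or fewer, and the 3 nearest non-members of each member, apart from 1 gene that is not reported here. Extremes are given for the comparisons the text describes by list, not for each comparison, and not for genes with few counts. Names in lists that lie between the extremes were added after their values were seen. Each library is a pool of 2 brains, and p-values measure the spread between these libraries. Alternatives were other scalings (DESeq2 size factors, upper quartile factors, library totals), filters, fold and p thresholds, DESeq2 1.42.0, the compared groups alone, summed heavy chains, the replicate block and each library left out.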

Additional observations from a re-analysis of the deposited data

Results flagged for a closer look

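The injury effects at 7 d and 1 d differed by the test in 7 of the 10 genes in WT microglia (edgeR quasi-likelihood test, adjusted p under 0.05). Of all genes tested 10.3% were called there (3.70% higher). The shared sham libraries cancel in this difference, so it is the same comparison of 7 d with 1 d given above. The log2 differences, 7 d minus 1 d, were 1.78 for H2-K1, 1.66 for H2-D1, 1.47 for B2m, 1.28 for Tap1, 0.66 for Tapbp, 1.13 for Psmb9 and 2.41 for Nlrc5. In Fgg γ390–396A microglia they differed for H2-K1 (1.20) and H2-D1 (1.12), where 5.64% of all genes tested were called (1.08% higher). Whether the time effect itself differed between genotypes was tested as an interaction, which was called for 0 of the 10 genes by edgeR and by DESeq2. At an unadjusted p under 0.05 (edgeR) it was 1 of 10, against 2.74% of all genes.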

How the results depend on the processing

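The direction of every call was the same in each alternative run, apart from Psmb8 at 1 d in WT microglia, which turned to -0.19 (log2) under library totals. Numbers of the 10 genes called that moved by over 1.5 times follow, and the cause was not tested. Fgg γ390–396A microglia at 1 d against sham had 1 call. They had 2 with DESeq2 size factors, upper quartile factors, edgeR's own expression filter, the replicate block or an adjusted p under 0.1. DESeq2 also gave 2, where it called 22.1% of the genes given an adjusted p. A bar of 1 on the log2 fold change gave 0, and a library left out gave 0 to 1. WT microglia at 1 d had 2, 1 higher and 1 lower, and 4 under library totals, all lower, 0 with the bar or with the compared groups alone, and 0 to 1 with a library left out. WT microglia at 7 d had 5, and 3 under library totals and 3 to 4 with a library left out. Fgg γ390–396A microglia at 7 d had 2, and 4 at an adjusted p under 0.1, 5 with DESeq2, and 1 with heavy chains summed (which merges both called genes) or the compared groups alone; against 1 d they had 2, and 6 with DESeq2, 1 with heavy chains summed and 1 to 3 with a library left out. Infiltrating myeloid cells against microglia had 7 (WT) and 6 (Fgg γ390–396A), and 4 and 3 with the bar and, for Fgg γ390–396A, 2 under library totals. Same-numbered libraries were not paired in the main fit. Of 63 such pairs 17 had deviations correlated above 0.1 (median 0.028, against -0.0084 for other numbers), and no comparison had all 3 above it. Between cell types at 1 d all 3 were above 0 (0.062 to 0.24 in WT, 0.098 to 0.22 in Fgg γ390–396A). The same held between genotypes in microglia (0.099 to 0.48 at 1 d, 0.0016 to 0.12 at 7 d) and for WT 1 d microglia against sham (0.060 to 0.14). Each other comparison had a pair below 0. Whether both cell types of 1 number came from the same brains is not stated, and the fit took them as independent. With the replicate block Tapbp at 1 d (-0.51, adjusted p = 0.043) and Nlrc5 at 7 d (3.10, adjusted p = 0.018) in Fgg γ390–396A microglia against sham and B2m between these times (0.71, adjusted p = 0.049) were called by edgeR, no call was lost, and no other count moved by over 1.5 times. Every genotype comparison had 0 calls under each alternative. With 3 libraries a group, Nlrc5 (0.503 to 11.4 CPM) is the least precise of the 10 genes.
Over all genes DESeq2 called more than edgeR by over 1.5 times in these comparisons: against sham, 1305 against 640 in WT and 591 against 211 in Fgg γ390–396A microglia at 7 d, and 3564 against 2332 in Fgg γ390–396A microglia at 1 d; between 7 d and 1 d, 3875 against 2451 (WT) and 2365 against 1343 (Fgg γ390–396A); between genotypes, 82 against 10 at 1 d, 73 against 9 at 7 d and 621 against 49 in infiltrating myeloid cells; and for the interactions 25 against 0 with time and 137 against 6 with cell type.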
